A study of Homo sapiens with 4 samples.

Results

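FOXK1 peaks were described at the 7 genes of the JUN and FOS families, which encode the AP-1 transcription factors: JUN, JUNB, JUND, FOS, FOSB, FOSL1 and FOSL2. These genes were taken by name, 7 of 20037 protein-coding genes on the assembled chromosomes of RefSeq GRCh38, and each was read with 5 kb on either side of the gene body, called its window. All peaks that overlapped a window by at least 1 bp were kept. These were 52 of the 439136 TGF-β1 peaks and 39 of the 381700 control peaks. The cells were HK-2, an immortalised human proximal tubular epithelial line. They had received 10 ng/ml TGF-β1 for 24 h in the TGF-β1 group and no TGF-β1 in the control group. Both groups were fixed with paraformaldehyde, digested with micrococcal nuclease, sonicated and precipitated with a FOXK1 antibody. FOXK1 is a forkhead protein that the series relates to glycolysis and renal fibrosis. Each group had 1 FOXK1 library and 1 input library, and each peak list came from 1 FOXK1 library set against its own input. The value of a peak was the authors' pileup height, the number of fragments stacked at its highest point, in whole numbers of at least 3.

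AP-1 is a dimer of basic leucine zipper proteins. JUN proteins pair with each other or with FOS proteins, whereas FOS proteins need a JUN partner to bind DNA. Most of the family are immediate early genes, switched on within minutes by growth factors, stress and cytokines through MAP kinases, and AP-1 works together with SMAD factors at genes that answer TGF-β. FOXK1 binds a forkhead motif through its winged helix domain and is known chiefly as a repressor of transcription.

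The median height was 5 in each list, and the sequencing depth was unknown. Heights of the TGF-β1 and control lists are therefore printed side by side and are not a measure of change. With 1 FOXK1 library per condition there was no replicate, no test and no p-value, and 95% Poisson intervals given for heights treat a height as a count of fragments and cover counting error only. Coordinates are those of hg38, and exons were not used here. A peak was called strong when it was at least as high as the peak ranked 10000th in its list, which meant a height of 15 or more in the TGF-β1 list and 17 or more in the control list.

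All 7 genes had at least 1 peak in their window in each list. That is the usual state of a gene here, since 94.8% of protein-coding genes in the TGF-β1 list and 94.7% in the control list had a peak of some height in the same kind of window. Strong peaks were less common in general. They were found in the windows of 4 of the 7 AP-1 genes in the TGF-β1 list, where 29.9% of all genes and 20.6% of genes no longer than FOSL2, the longest member, had one. In the control list 6 of the 7 had one, against 31.1% and 22.1%. JUN, JUNB, FOS and FOSL2 had strong peaks in both lists, JUND and FOSB in the control list only, and FOSL1 in neither. The minimum for a strong peak was not the same in both lists, and whether the lists differ here was not tested.

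Pooled, the AP-1 windows held 4.31 peaks per 10 kb in the TGF-β1 list and 3.23 in the control list. By gene the rate ran from 2.91 in FOSB to 5.41 in FOSL1 in the TGF-β1 list. In the control list it ran from 1.69 in JUNB to 4.35 in FOSL2. The low rate of JUNB came from 2 control peaks, 1 of them 5101 bp wide. Together they covered 46.3% of its window, the largest covered share of the family in that list. Over all protein-coding genes the median rate per gene was 1.80 in the TGF-β1 list, with quartiles of 1.23 and 2.41. It was 1.61 in the control list, with quartiles of 1.12 and 2.20. For genes no longer than FOSL2 the median was 1.82 in the TGF-β1 list, with quartiles of 0.997 and 2.66. In the control list it was 1.74, with quartiles of 0.952 and 2.54. Strong peaks made up 10 of the 52 TGF-β1 peaks in AP-1 windows (19.2%) and 12 of the 39 control peaks (30.8%), where the whole lists held 2.58% and 2.90%. The whole lists include peaks outside gene windows. The share of strong peaks in the windows of other genes was not taken, so this contrast cannot be called particular to AP-1 genes. Of the strong peaks, 7 of 10 in the TGF-β1 list and 7 of 12 in the control list overlapped the 1 kb on either side of a gene start, called the start window. How often strong peaks of the whole lists overlap a start window was not taken, so these counts have no share to be set against. Another 3 and 4 lay further inside a gene, all of them in FOSL2 and FOSB, and the remaining strong control peak lay downstream of FOSB.

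**Figure D1:**
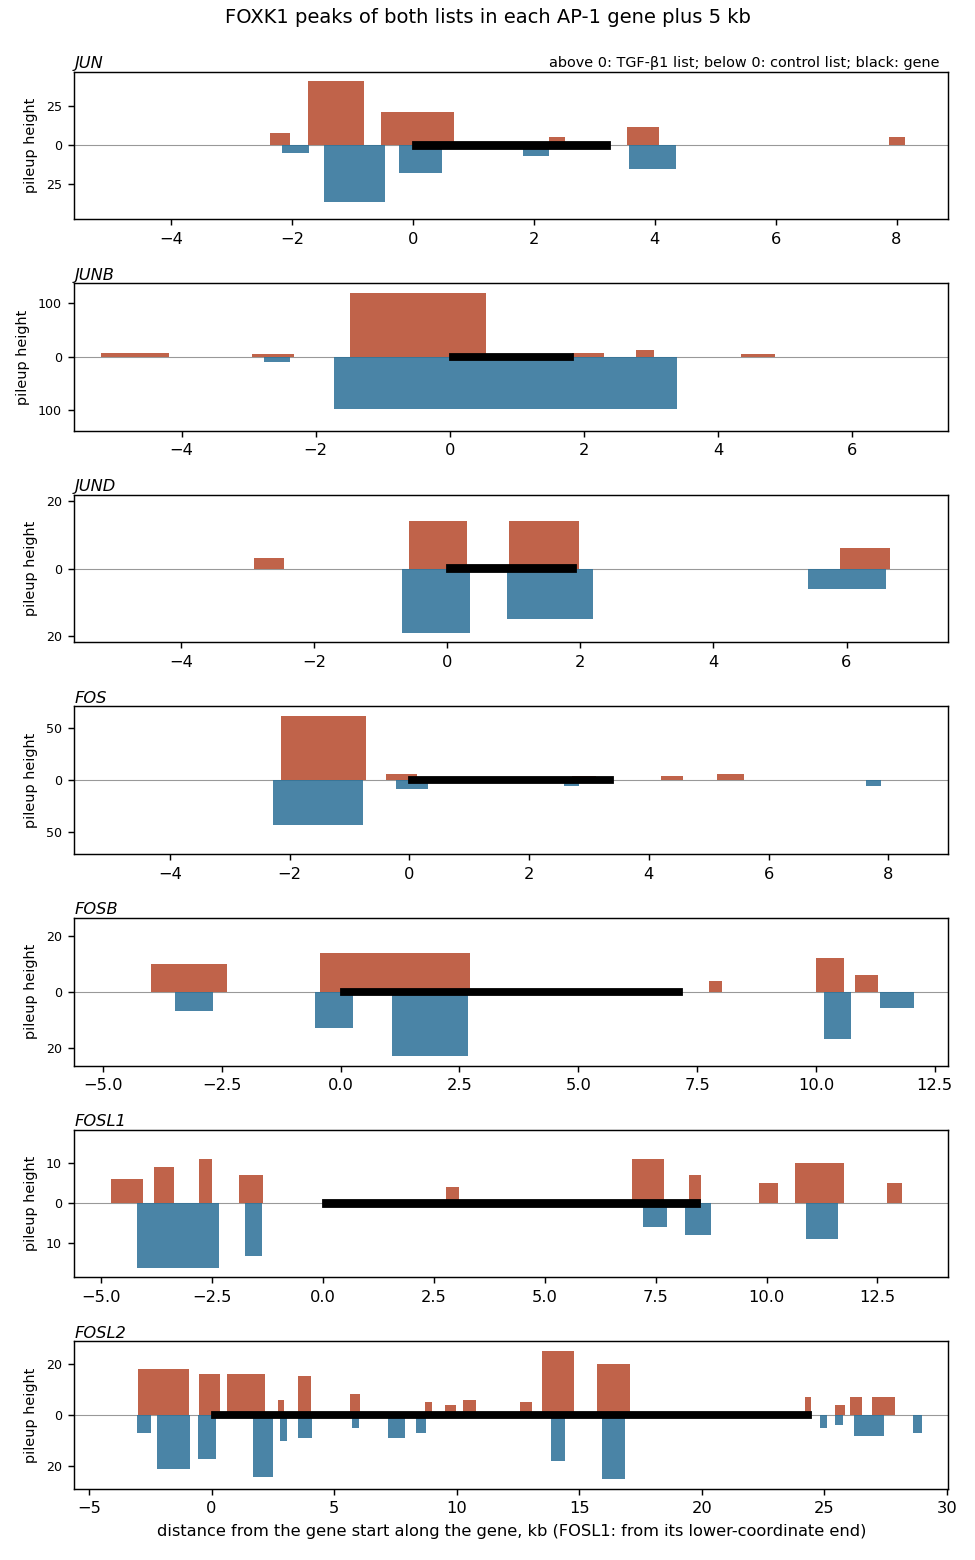
Peaks in the windows of the 7 genes, drawn as bars that span the whole peak at its pileup height (vertical axis, scaled per gene), against the distance from the gene start in kb, with TGF-β1 peaks above 0, control peaks below 0 and the gene in black. The peak over the start of JUNB is 120 high in the TGF-β1 list and 98 in the control list, whereas the highest peaks of FOS and JUN lie upstream of their starts.

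JUNB (chr19:12791486-12793315, plus strand) encodes a JUN protein that often acts as a weaker activator than JUN and is itself a rapid target of TGF-β in many cells. It had the highest peak of the family, with a height of 120 in the TGF-β1 list (95% Poisson interval 99.5 to 143) and of 98 in the control list (79.6 to 119). Of 15843 protein-coding genes whose strand was known, 26 had a start peak that high or higher in the TGF-β1 list, JUNB included, and 62 in the control list.

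The TGF-β1 peak of JUNB lay at chr19:12789989-12792028 and was 2040 bp wide, from 1497 bp before the start to 542 bp after it. The control peak lay at chr19:12789764-12794864 and was 5101 bp wide, so that it held the whole of the gene. Only 4 control peaks were that wide or wider, this one included. Within the reach of that control peak the TGF-β1 list held 2 further low peaks, of 7 over the end of the gene and of 13 beyond it. The lists thus cut the same stretch into different numbers of peaks. The peak cannot be assigned to JUNB alone, because of HOOK2, a gene for a microtubule adaptor protein on the opposite strand. HOOK2 starts 864 bp inside JUNB, and the same peak was the highest start peak of both genes. The start of JUNB lay under this peak in both lists. That of HOOK2 lay under the control peak only, as the TGF-β1 peak ended before it.

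The bases just before a start lie largely under the peak over that start, which for JUN and FOS was not their highest peak. Sequences of 250 bases from RefSeq on GRCh38.p14 are given 5′ to 3′ along the gene, for the 3 JUN genes, whose start peaks ran from the highest of the family to low ones, and for FOS. The highest peaks of JUN and FOS lay outside this stretch. Capitals mark matches, on either strand, to the words searched: TGTTTAC and TGTTTNC for forkhead factors, TGANTCA for AP-1, TGACGTCA for the cyclic AMP response element, TGACATCA for the AP-1-like element of the JUN promoter, GGGCGG for the GC box, CCAAT for the box of that name, TATAAA for the TATA box, and the CArG box of serum response factor. TGTTTAC is a special case of TGTTTNC.
JUNB, chr19:12791236-12791485, plus strand: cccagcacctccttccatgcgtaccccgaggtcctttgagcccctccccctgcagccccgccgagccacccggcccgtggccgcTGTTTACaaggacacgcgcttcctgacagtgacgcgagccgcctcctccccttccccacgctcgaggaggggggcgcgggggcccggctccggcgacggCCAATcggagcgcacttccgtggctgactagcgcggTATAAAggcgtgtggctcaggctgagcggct
JUN, chr1:58784048-58784297, minus strand: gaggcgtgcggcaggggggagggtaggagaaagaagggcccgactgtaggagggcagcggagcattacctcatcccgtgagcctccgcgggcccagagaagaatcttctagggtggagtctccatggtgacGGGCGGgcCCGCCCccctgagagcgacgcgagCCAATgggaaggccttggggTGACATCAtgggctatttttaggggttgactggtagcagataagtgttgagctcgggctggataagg
JUND, chr19:18281623-18281872, minus strand: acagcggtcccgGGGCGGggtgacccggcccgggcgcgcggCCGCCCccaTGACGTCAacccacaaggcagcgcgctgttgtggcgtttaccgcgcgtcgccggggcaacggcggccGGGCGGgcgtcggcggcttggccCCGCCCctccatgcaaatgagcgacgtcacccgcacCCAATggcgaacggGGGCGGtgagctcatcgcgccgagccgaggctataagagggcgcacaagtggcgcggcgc
FOS, chr14:75278578-75278827, plus strand: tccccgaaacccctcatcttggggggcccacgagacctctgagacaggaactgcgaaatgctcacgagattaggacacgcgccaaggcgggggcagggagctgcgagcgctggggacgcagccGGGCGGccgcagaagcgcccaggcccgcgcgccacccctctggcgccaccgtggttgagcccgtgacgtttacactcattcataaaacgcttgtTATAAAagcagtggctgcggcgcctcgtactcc

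The forkhead word TGTTTAC was found in JUNB, 166 to 160 bases before its start, and in none of the other 5 members with a sequence in the table (JUN, JUND, FOS, FOSB and FOSL2). It was present in 2.18% of 13820 promoters of protein-coding genes read in the same way, and the looser TGTTTNC in 12.3%. The JUN promoter held TGACATCA, 67 to 60 bases before its start, a word found in 1.82% of promoters. JUND held the palindrome TGACGTCA, 200 to 193 bases before its start, which 2.41% of promoters held. TATAAA was found close before the starts of JUNB, FOS and FOSB and in 9.63% of promoters. GGGCGG stood in 5 of the 6 sequences and in 56.0% of promoters, and CCAAT in 3 of the 6 and in 35.2%. TGANTCA and the CArG box matched none of the 6 sequences, with shares of 5.04% and 1.16% among all promoters. Bases further upstream were not searched, so the lack of a match does not show that a gene has no such word there. These are matches of letters within 250 bases and do not show binding.

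GC content of these stretches ran from 62.0% in JUN to 74.8% in JUND, with a median of 62.4% over all promoters (quartiles 52.8% and 70.0%). The peak over the stretch had heights of 120 in the TGF-β1 list and 98 in the control list for JUNB, 21 and 18 for JUN, and 14 and 19 for JUND. For FOS it was 6 and 9. FOSL2 had 16 in the TGF-β1 list and 17 in the control list there, and FOSB 14 and 13.

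JUN (chr1:58780791-58784047, minus strand) encodes the founding AP-1 subunit, which activates its own promoter. Its window held 6 TGF-β1 peaks and 5 control peaks. The highest had a height of 41 in the TGF-β1 list (29.4 to 55.6), at chr1:58784855-58785785, and of 36 in the control list (25.2 to 49.8), at chr1:58784508-58785509. Neither covered the start of JUN: the nearer edge lay 808 bp before it in the TGF-β1 list and 461 bp before it in the control list. Both covered the start of JUN-DT, a long non-coding RNA gene that runs in the opposite direction and begins 1104 bp upstream of JUN.

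A second, lower peak lay over the start of JUN itself, with a height of 21 in the TGF-β1 list and 18 in the control list. A further peak lay past the end of the gene, 3536 bp from the start in the TGF-β1 list with a height of 12, and 3579 bp from it in the control list with a height of 15. The other JUN peaks were low, from 5 to 8. The Poisson intervals of the upstream and downstream sites were apart in both lists. Those of the start site, 13.0 to 32.1 in the TGF-β1 list and 10.7 to 28.4 in the control list, overlapped both of the others in each list. Overlap of separate intervals does not settle an order, and the place of the start site in it was not tested.

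JUND (chr19:18279694-18281622, minus strand), which encodes the JUN protein made most steadily in resting cells, had a peak over its start of 14 in the TGF-β1 list (7.65 to 23.5) and of 19 in the control list (11.4 to 29.7). In the TGF-β1 list it missed the minimum of 15 for a strong peak by 1, and in the control list it passed the minimum of 17 by 2. Another peak lay across the distal part of the gene, with a height of 14 in the TGF-β1 list and 15 in the control list. The peak over the start also covered the microRNA gene MIR3188 and an end of the long non-coding RNA gene LOC124904652. JUND is short, 1929 bp, and both of these peaks were overlapped by the other list.

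FOS (chr14:75278828-75282230, plus strand), the classic immediate early gene, had the second highest peak of the family. Its height was 62 in the TGF-β1 list (47.5 to 79.5), at chr14:75276688-75278109, and 43 in the control list (31.1 to 57.9), at chr14:75276540-75278047. This peak lay upstream of the gene, from 2140 to 719 bp before the start in the TGF-β1 list and from 2288 to 781 bp before it in the control list. No other annotated gene lay in the FOS window. The start of FOS was covered by a separate peak of 6 in the TGF-β1 list and 9 in the control list, heights reached by 35.3% of all TGF-β1 peaks and 12.8% of all control peaks. The body and the downstream side held peaks of 4 to 6 in the TGF-β1 list and of 6 in the control list.

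FOSB (chr19:45467996-45475179, plus strand), which encodes a FOS protein known for its long-lived truncated form in the brain, had no strong peak in the TGF-β1 list. A wide TGF-β1 peak of 14 (7.65 to 23.5) ran from 437 bp before the start to 2729 bp after it. Its width of 3167 bp was reached by 82 TGF-β1 peaks in all. The control list held 2 peaks in its place, of 13 over the start and of 23 from 1080 to 2680 bp after it. An upstream peak had a height of 10 in the TGF-β1 list and 7 in the control list.

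Downstream of FOSB lies TRU-TCA1-1, a gene for the selenocysteine transfer RNA. The control list held a strong peak of 17 there that covered it, at chr19:45478155-45478723. The TGF-β1 list held an overlapping peak of 12 at chr19:45477987-45478577 that ended before the gene, which spans chr19:45478601-45478687. This control peak is the 1 strong peak in a downstream flank of the family.

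FOSL1 (chr11:65892049-65900545), which encodes FRA-1, had no strong peak in either list. Its strand was not used here, so both of its ends were read as starts. The highest peak at an end had a height of 11 in the TGF-β1 list (5.49 to 19.7) and of 8 in the control list (3.45 to 15.8). Its window overlaps 2 other genes, and higher control peaks lay there. A control peak of 16, 1858 bp wide, covered the start of FIBP, which encodes a fibroblast growth factor binding protein. The TGF-β1 list held 3 peaks of 6, 9 and 11 in its place. At the start of CCDC85B, a coiled-coil protein gene, the height was 7 in the TGF-β1 list and 13 in the control list. Beyond the other end of FOSL1 lay a peak of 10 in the TGF-β1 list and of 9 in the control list.

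FOSL2 (chr2:28392858-28417317, plus strand), which encodes FRA-2, is the longest member at 24460 bp and had the most peaks, 16 in the TGF-β1 list and 15 in the control list. Of these, 6 and 5 were strong. In the start window the highest was 18 in the TGF-β1 list (10.7 to 28.4) and 21 in the control list (13.0 to 32.1), and it lay upstream, with its nearer edge 923 bp and 861 bp from the start. Over the start itself the heights were 16 and 17.

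Inside FOSL2 the sites with strong peaks fell at similar places in both lists. A peak of 16 in the TGF-β1 list and of 24 in the control list covered the start of FOSL2-AS1, a long non-coding RNA gene on the opposite strand whose start lies 1814 bp inside FOSL2. The other sites inside the gene that were strong in both lists lay deep in its body. From 13488 bp after the start the TGF-β1 list held a peak of 25 at chr2:28406346-28407648, and the control list held one of 18 at chr2:28406719-28407273. At the next site the TGF-β1 list held a peak of 20 at chr2:28408596-28409928, and the control list held one of 25 at chr2:28408794-28409721. The order of these 2 sites was thus opposite in the lists, and the Poisson intervals of such heights overlap. A peak of 15 in the TGF-β1 list, at 3525 bp from the start, had a control counterpart of 9, and a control peak of 10 had a TGF-β1 counterpart of 6.

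Set against the other genes, the family spread over a wide range of start peaks. All 7 genes had a start peak of some height in each list, as did 67.0% of protein-coding genes in the TGF-β1 list and 68.1% in the control list. A strong start peak was found for 4 of the 7 in the TGF-β1 list, where 14.6% of protein-coding genes had one, and for 5 in the control list, where 15.8% had one. With a 500 bp start window or with peak midpoints FOS was no longer strong, which left 3 members in the TGF-β1 list and 4 in the control list. The shares over all genes given here are for the 1 kb window, and none was taken at those settings. JUNB, FOS, JUN and FOSL2 were strong in both lists, as were 11.7% of genes with a known strand. The median start peak of the 7 genes was 18 in the TGF-β1 list and 21 in the control list, and that of all genes with a known strand was 6 and 7.

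In the 1 kb start window the order JUNB, FOS, JUN was the same in both lists. FOS fell below JUN with a 500 bp window or with peak midpoints, at 6 for FOS and 21 for JUN in the TGF-β1 list and at 9 for FOS and 36 for JUN in the control list. JUNB stood above FOS by 1.94 times in the TGF-β1 list and by 2.28 times in the control list, and their intervals did not overlap in either. The intervals of FOS and JUN overlapped in both lists. Those of JUN and FOSL2 were apart in the TGF-β1 list and overlapped in the control list. Among FOSL2, JUND, FOSB and FOSL1 neighbouring intervals overlapped throughout, and the order of these genes was not tested. Start peaks as high as that of FOS or higher were found at 0.814% of genes with a known strand in the TGF-β1 list and at 2.36% in the control list. For JUN the shares were 1.85% and 3.42%, for FOSL2 10.6% and 10.9%, for JUND 17.7% and 13.3%, and for FOSB 17.7% and 26.8%.

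**Figure D2:**
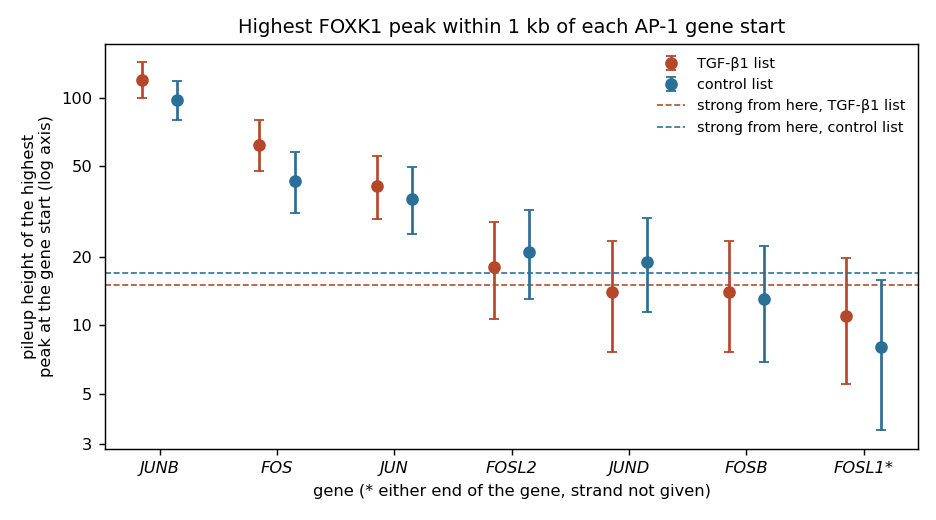
Pileup height (log axis) of the highest peak within 1 kb of each gene start, TGF-β1 left and control right, with 95% Poisson intervals for counting error and dashed lines at the lowest height called strong. JUNB stands highest at 120 and 98, followed by FOS at 62 and 43 and JUN at 41 and 36.

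**Figure D3:**
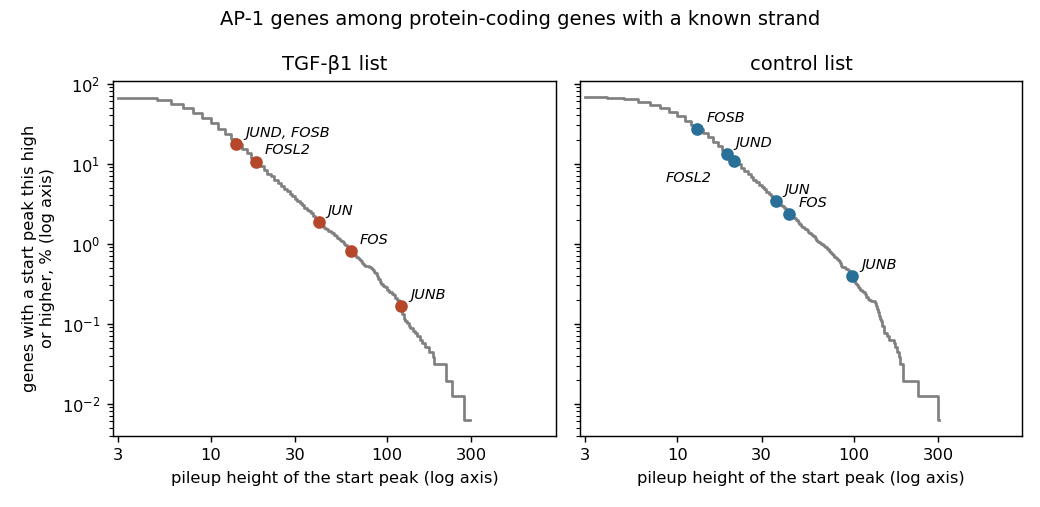
Share of the 15843 protein-coding genes with a known strand whose start peak reaches a given pileup height (both axes log), in the TGF-β1 list on the left and the control list on the right, with 6 members as points and FOSL1 left out. JUNB lies in the tail of both lists, at 0.164% and 0.391% of genes.

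The 3 genes whose pair of start peak heights was nearest to that of JUNB, by Euclidean distance of log2 heights over the 2 lists, were BCKDHA, EXOSC5 and NKAP. BCKDHA, a subunit of branched-chain ketoacid dehydrogenase, and EXOSC5, a subunit of the RNA exosome, shared a peak of 124 in the TGF-β1 list and 101 in the control list, at a distance of 0.06. NKAP, a regulator of transcription and splicing, had 115 and 105, at a distance of 0.12. A likeness over 2 lists is a description of heights alone.

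All 20 TGF-β1 peaks of height 10 or more in AP-1 windows were overlapped by a control peak, and all 18 control peaks of that height by a TGF-β1 peak, counting an overlap of 1 bp by a peak of any height. Where the other peak had to reach 10 as well, 16 of the 20 TGF-β1 peaks (80.0%) and 16 of the 18 control peaks (88.9%) were overlapped. The share over all peaks was not taken under that stricter rule. The shares that follow count an overlap by a peak of any height. For all peaks, 22.9% of the TGF-β1 list and 26.1% of the control list were overlapped by the other list, and the share climbed with height. It was 79.2% and 75.2% at heights of 10 to 14, 92.2% in each list at 15 to 19, and 94.7% and 96.1% at 20 or more. Below a height of 10, 16 of 32 TGF-β1 peaks and 15 of 21 control peaks in AP-1 windows were overlapped. Over all TGF-β1 peaks the share was 11.7% at heights of 3 to 4, 17.8% at 5 to 6 and 39.7% at 7 to 9. Over all control peaks it was 12.1%, 18.4% and 37.0%. The counts below 10 mix these height classes, so they have no single share to be set against.

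Taking all heights, 36 of 52 TGF-β1 peaks of the family were shared, 69.2% (exact binomial 95% interval 54.9 to 81.3), and 33 of 39 control peaks, 84.6% (69.5 to 94.1). The peaks without a counterpart were low. They reached 8 in the TGF-β1 list, in the upstream flank of JUNB, where the peak covered the microRNA gene MIR5684, and 9 in the control list, inside FOSL2. At heights of 7 to 9 the shared count was 8 of 10 in the TGF-β1 list, or 80.0% (44.4 to 97.5), against 39.7% of all its peaks, and 9 of 12 in the control list, or 75.0% (42.8 to 94.5), against 37.0%. These intervals cover counting error only. Peaks stood denser in AP-1 windows than in the median gene window. Over all heights they were also wider, with a median of 514 bp against 339 bp for the whole TGF-β1 list. In the control list the medians were 700 bp and 358 bp. The part of density and width in the shared counts was not tested.

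**Figure D4:**
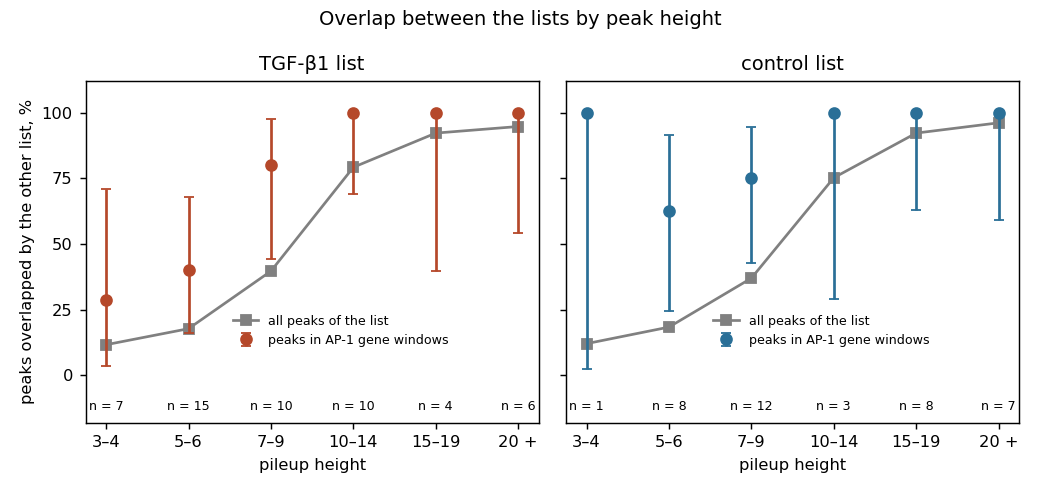
Share of peaks overlapped by at least 1 bp by a peak of the other list, by pileup height, for peaks in AP-1 windows (coloured points with exact binomial 95% intervals and their number) and for all peaks of the list (grey squares), TGF-β1 on the left and control on the right. All member peaks of height 10 or more were shared, and shares under that height ran from 28.6% to 80.0% in the TGF-β1 list.

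Other genes of the AP-1 pathway were read in 5 lists of 76 genes, chosen with earlier results of these data known. In all, 21 of them had a strong start peak in the TGF-β1 list and 20 in the control list. Over all protein-coding genes 14.6% had one in the TGF-β1 list and 15.8% in the control list. Strong in both lists were 11.7% of genes with a known strand, and no such share was taken over all genes. Genes without a known strand were read at either end, which gives them a wider window. Of the genes named below these were ATF2, NR4A2 and MYC, whose peaks may lie at the end of the gene and not at its start.

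Of 16 dimer partners and related basic leucine zipper genes, 5 had a strong start peak in the TGF-β1 list and the same number in the control list, and all 5 were strong in both. NRL, a retinal MAF factor, shared its peak with DCAF11, of height 49 in the TGF-β1 list and 55 in the control list. MAF had 33 in the TGF-β1 list and 63 in the control list, and ATF2, which pairs with JUN at cyclic AMP response elements, had 27 and 33. Of 17 kinases upstream of AP-1, 4 were strong in each list and 3 in both. MAP2K3, which activates p38, had 23 in the TGF-β1 list and 31 in the control list. MAPK10, the neuronal JNK, had 23 and 21 from peaks that did not overlap, and its start window holds a peak it shared with PTPN13. MAPK8, the ubiquitous JNK that phosphorylates JUN, had 16 and 29.

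Of 11 factors that act at the FOS and JUN promoters, 4 were strong in the TGF-β1 list and 3 in the control list, with 2 in both. MEF2D had 50 and 54, and the ternary complex factors ELK3 and ELK1, which bind beside serum response factor, had 25 and 20, and 18 and 16. Of 18 other immediate early genes, 5 were strong in each list and all 5 in both. NR4A2, an orphan nuclear receptor, had 81 in the TGF-β1 list and 73 in the control list, MYC had 37 and 41, and NR4A3, another receptor of that family, had 19 and 22.

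Of 14 AP-1 target genes, 3 were strong in each list and all 3 in both. Among them, the chemokine gene CXCL8 had a start peak of 52 in the TGF-β1 list and 48 in the control list. PLAU, the urokinase gene, had 33 in the TGF-β1 list and 42 in the control list. Among the 5 lists, strong shares ran from 21.4% to 36.4% in the TGF-β1 list, with 14.6% over all genes, and from 21.4% to 31.2% in the control list, with 15.8% over all genes.

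**Figure D5:**
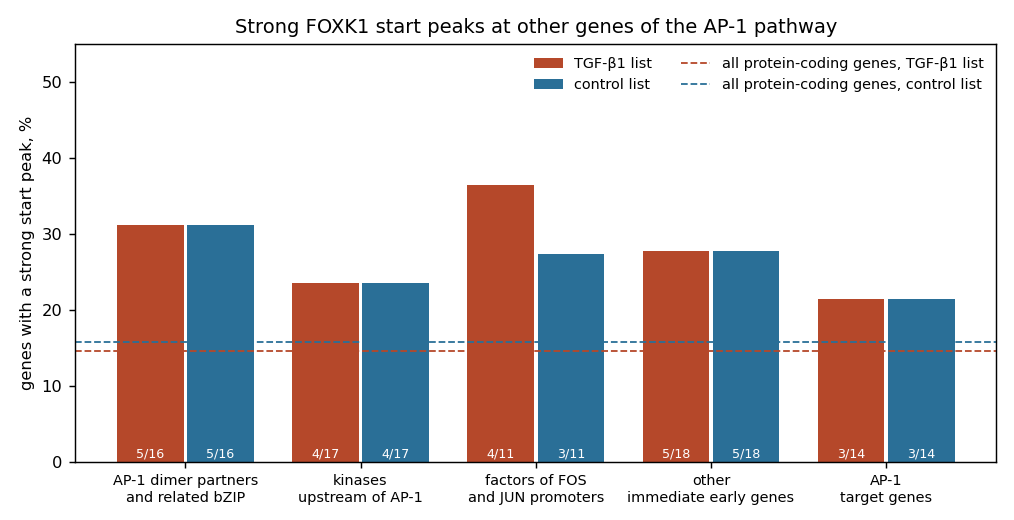
Share of genes with a strong start peak (bars, with counts at their foot) in 5 lists of AP-1 pathway genes, TGF-β1 left and control right, with dashed lines at the share over all 20037 protein-coding genes, 14.6% and 15.8%. Bars of the 5 lists stand between 21.4% and 36.4%.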

How the data were processed

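The 4 libraries were 1 FOXK1 library and 1 input for each of TGF-β1 and control. The deposited files were 2 peak lists, each giving chromosome, start, end and a signal per peak, the authors' pileup height. The tools named in the submitters' processing notes are MACS2 2.1.1.20160309 and bcl2fastq 2.17, and the build is hg38; the aligner, read filters, peak threshold and read numbers are not given in the sources used here. Peaks were called per library and not pooled.

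Starts were read as counting from 0 and are printed counting from 1, so they may be off by 1 bp. Gene positions and promoters came from RefSeq tables on GRCh38.p14, the coordinates of hg38. Strand came from the promoter table for 15843 genes; the other 4194, FOSL1 among them, were read at both ends. A peak counted for a window from 1 bp of overlap. Named were all members, protein-coding neighbours starting in their windows, the 3 pathway genes per list with the highest TGF-β1 start peak and the 3 genes most like JUNB. A gene that this rule names in the list of AP-1 targets is counted there and not reported by name here. The non-coding genes under described peaks (JUN-DT, FOSL2-AS1, MIR3188, MIR5684, LOC124904652 and TRU-TCA1-1) fall outside this rule and were chosen after their values were seen. Members and lists were chosen with earlier results of these data known. Shares have exact binomial and heights exact Poisson 95% intervals. Overlap code was tested on simulated peaks. Python 3.11.15, numpy 2.4.6, pandas 2.3.3, scipy 1.17.1 and matplotlib 3.10.9 were used. Alternatives were other windows, height minima and overlap rules.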

Additional observations from a re-analysis of the deposited data

How the results depend on the processing

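No paired analysis was possible because each condition had 1 FOXK1 library. Peaks in AP-1 windows numbered 52 in the TGF-β1 list and 39 in the control list, 32 in the TGF-β1 list with a 1 kb flank, and 20 and 18 at a height of 10 or more. The 76 pathway genes gave 13 strong start peaks in each list with strong peaks defined by the 5000th highest peak, and 32 in the TGF-β1 list with the 20000th. Shares over all protein-coding genes were not taken at those ranks. Of 30 alternative values of the summary counts and shares, the other 24 stayed within 1.5 times, or, for shares, within the main interval. The FOS start peak is 6 in the TGF-β1 list and 9 in the control list with a 500 bp window or with peak midpoints, because the high peak lies further upstream. JUN then has 21 in the TGF-β1 list and 36 in the control list, so FOS falls below it and is no longer strong. FOSB has 23 in the control list with a 2 kb window, and no start peak in the TGF-β1 list with midpoints. Unknown depth limits every comparison between the lists.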

Other observations

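Strong peaks beyond the windows, within 100 kb of the AP-1 genes, numbered 17 in each list, and all of them were overlapped by a peak of the other list. Over the whole lists the overlapped share was 92.2% in each at heights of 15 to 19, and 94.7% in the TGF-β1 list and 96.1% in the control list at 20 or more, so these counts stand close to the general share. FOS had such peaks on both sides at places with no protein-coding gene. The upstream one, 18907 bp away in the TGF-β1 list, had a height of 43 in the TGF-β1 list and 60 in the control list. The downstream one, 11233 bp away, had 38 in both. JUN had an upstream peak 30904 bp away, of 22 in the TGF-β1 list and 28 in the control list. JUNB had a peak of 54 in the TGF-β1 list inside HOOK2, 5750 bp before JUNB, where the overlapping control peak had a height of 21. FOSB had a peak of 26 in the TGF-β1 list and 32 in the control list, 11482 bp upstream in the TGF-β1 list, outside any protein-coding gene. FOSL2 had no strong peak within that distance in the TGF-β1 list and 1 of 20 in the control list, which a TGF-β1 peak of 12 overlapped.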
